A study of Mus musculus with 8 samples.

Results

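Ts65Dn mice, a model of Down syndrome, carry an extra marker chromosome that holds the distal end of mouse chromosome 16 joined to the centromeric end of chromosome 17. The genes described here are those of the chromosome 17 part, from the centromere through Pde10a. They are present in 3 copies in Ts65Dn but have no counterpart on human chromosome 21, with a reservation for 4 listed genes that lie beyond Pde10a in the gene order used here, of which Gpr31b was measured. Of 41 genes on the list, 24 were measured by at least 1 probe set annotated to that gene alone, out of 19938 genes measured in all. Of the others, 14 occur only in probe sets that name several genes, and Rps6ka2, Ttll2 and T (brachyury) matched no probe set.

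Soleus muscles came from 4 male Ts65Dn mice and from 4 male wild-type colony mice of the mixed strain B6EiC3SnF1/J. All were 5 months old, and the muscles were taken in the basal state under sodium pentobarbital. Each sample, labelled a separate biological replicate, was read on 1 array, with log2 RMA values on which a difference of 1 is a doubling of brightness. Slow-muscle genes, which mark soleus, were bright on every array, with a mean log2 value of 11.65 to 11.78 in Ts65Dn and 11.57 to 11.72 in wild type over 7 genes such as Myh7 and Tnnt1. The number of arrays limits the precision. In whole muscle, fewer cells of a type and less RNA per cell cannot be told apart.

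In a trisomy each gene of the extra segment has an additional template for transcription, so its RNA may rise in proportion to copy number. Feedback on RNA synthesis or decay can lower that rise, and a gene silent in a tissue stays silent whatever its copy number. The 3 to 2 ratio of copies corresponds to 0.58 on the log2 scale. The genes of this segment have unrelated roles, among them control of transcription, the cytoskeleton, membrane traffic, cell signalling and mitochondrial function.

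Promoter sequence gives one feature of the segment genes that their choice did not use. RefSeq (GRCm38.p6) promoter windows, each running from 250 bases before to 50 bases after a gene's start, were found for 22 of the 24 measured genes. In these, 16 genes had 10 or more CpG dinucleotides in at least 1 window, beside 43.5% of all 32851 windows. A gene with several starts has several windows, so this count of genes cannot be compared directly with a share of windows. A window with 10 or more CpG was found for 14 of the 17 matched genes brighter than the median gene. It was found for 2 of the 5 matched dimmer ones. The windows of Scaf8, a bright gene that was higher in Ts65Dn, and of Nox3, the dimmest of the measured segment genes, are shown as 1 example of each kind. Capitals mark CpG dinucleotides, of which Scaf8 has 47, the most of any segment gene window, and Nox3 has 6. Not every gene follows these examples. Synj2, bright and called higher, also has 6 in each of its windows, and the dim Serac1 has 27. The share among all bright or all dim genes was not counted.
Scaf8, chr17:3114722-3115021, plus strand: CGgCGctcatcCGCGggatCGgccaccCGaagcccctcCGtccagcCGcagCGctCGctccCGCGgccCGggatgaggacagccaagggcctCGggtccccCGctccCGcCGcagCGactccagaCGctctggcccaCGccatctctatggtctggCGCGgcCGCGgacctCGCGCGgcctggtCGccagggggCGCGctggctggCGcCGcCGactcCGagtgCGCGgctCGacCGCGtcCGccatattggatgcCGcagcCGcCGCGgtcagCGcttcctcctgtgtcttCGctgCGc
Nox3, chr17:3696212-3696511, minus strand: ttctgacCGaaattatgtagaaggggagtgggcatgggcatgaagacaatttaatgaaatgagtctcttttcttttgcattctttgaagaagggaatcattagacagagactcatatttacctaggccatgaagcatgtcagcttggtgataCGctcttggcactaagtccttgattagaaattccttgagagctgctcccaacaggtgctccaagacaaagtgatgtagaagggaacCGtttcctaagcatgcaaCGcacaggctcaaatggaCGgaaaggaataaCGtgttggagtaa

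Gtf2h5 and Serac1 start 89 bases apart and are read in opposite directions, so that their windows share 188 bases. They are shown because they are the only measured segment genes whose windows overlap, and Gtf2h5 has a second window that is not shown. Capitals mark CACGTG, searched by its letters, which read the same on both strands. It occurs in windows of 3 of the 22 matched genes, this pair among them, and in 7.2% of all windows, a share per window and not per gene. In the windows of both genes of the pair it is the same site, at chr17:6079731-6079736.
Gtf2h5, chr17:6079578-6079877, plus strand: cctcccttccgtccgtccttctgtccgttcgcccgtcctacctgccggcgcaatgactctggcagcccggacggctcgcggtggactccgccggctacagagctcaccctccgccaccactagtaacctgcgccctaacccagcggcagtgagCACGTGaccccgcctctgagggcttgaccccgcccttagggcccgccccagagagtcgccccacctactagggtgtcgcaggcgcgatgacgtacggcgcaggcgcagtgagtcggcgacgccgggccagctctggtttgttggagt
Serac1, chr17:6079690-6079989, minus strand: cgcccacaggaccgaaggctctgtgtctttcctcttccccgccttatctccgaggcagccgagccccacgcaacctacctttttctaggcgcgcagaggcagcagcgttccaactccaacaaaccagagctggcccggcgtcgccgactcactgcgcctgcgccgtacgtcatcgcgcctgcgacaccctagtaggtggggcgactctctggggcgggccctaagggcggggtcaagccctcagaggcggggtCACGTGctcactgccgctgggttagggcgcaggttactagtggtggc

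The arrays of the 2 groups differed in overall shape, which bears on every value below. Array medians were 4.23 to 4.29 in Ts65Dn and 4.37 to 4.56 in wild type, and interquartile ranges were 3.01 to 3.12 and 2.62 to 2.93. Wild-type arrays 2 and 3 had the narrowest ranges. In genes outside the segments the log2 fold change had its median at 0.11 where their mean lay above that of the median gene (4.72) and at -0.21 where it lay at or below it. Level-matched values are therefore given too, in which each array was corrected by the 100 genes outside the segments that were nearest in mean level. Values without wild-type arrays 2 and 3 are also given. The part of the array differences in each result was not tested. Of 6 endothelial markers 1, Kdr, was called higher by limma, beside 2.32% of all genes, and 0 lower. Fold changes were positive for 5 and negative for 1, Tie1 (-0.04), with a median of 0.56, or 0.31 level-matched. The mean log2 value of these markers per array was 5.79 to 6.02 in Ts65Dn and 5.22 to 5.63 in wild type, and their part was not tested either.

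In soleus of Ts65Dn mice 6 genes of the segment were called higher and 0 were called lower. They were Tiam2, Scaf8, Tulp4, Cep43, Fndc1 and Synj2, with log2 fold changes from 0.68 to 1.68. At limma's unadjusted p under 0.05, 13 segment genes were higher, beside 12.3% of all genes, and 5 lower, close to the 22.6% of all genes. Of all genes tested, 2.32% were called higher and 2.94% lower by limma at an adjusted p under 0.05, so that 6 of 24 lies above the share of all genes. All 6 were brighter than the median gene, and at that level 398 of 9888 genes outside the segments were called higher. Adjusted p-values of the 6 ran from 0.0456 to 0.0475, close to the threshold. With 1 array left out, the count was 0 without any one of the Ts65Dn arrays or without wild-type array 2 or 3, 7 without wild-type array 1 and 9 without wild-type array 4. It was also 0 without both wild-type arrays 2 and 3, with 11 segment genes higher and 1 lower at an unadjusted p under 0.05. The count of all genes called higher also changed with the array left out, as given in the closing section. In 10 of the 24 genes all Ts65Dn arrays lay above all wild-type arrays, which held for 6.81% of all genes. In 2 genes all lay below, which held for 15.9% of all genes. The median over the 24 genes was 0.34, with 16 positive, beside -0.10 over all genes. The level-matched median was 0.19, again with 16 positive, beside 0.0011 over all genes.

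**Figure D1:**
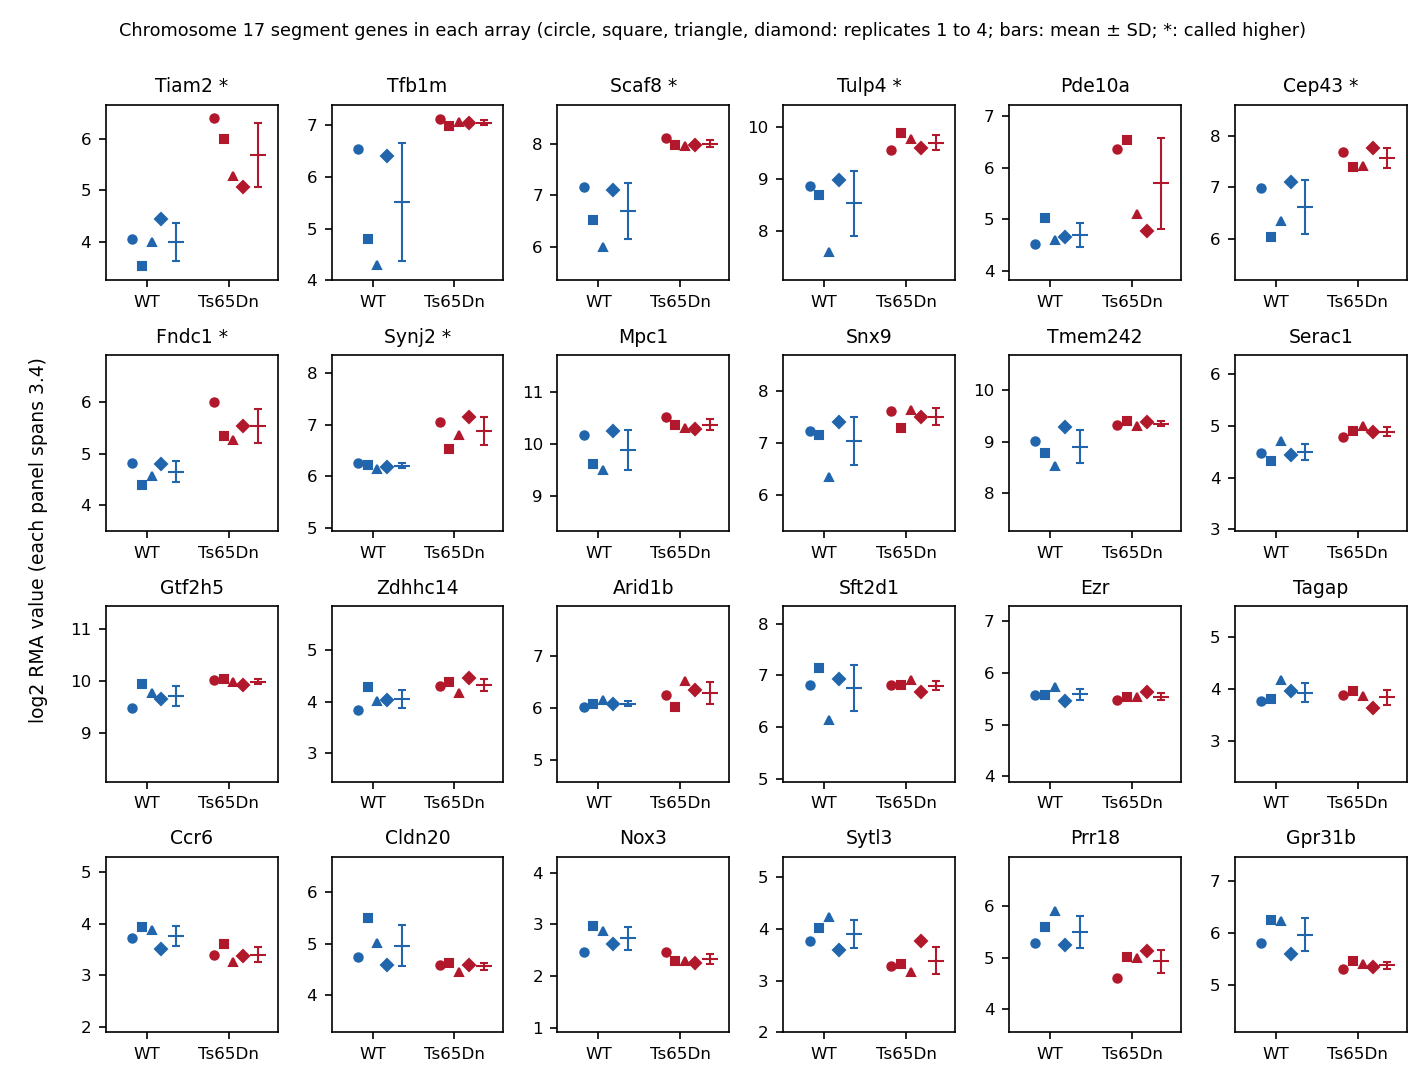
Log2 RMA values of the 24 measured segment genes on each of the 8 arrays, 1 panel per gene ordered by fold change, with wild type in blue and Ts65Dn in red, symbols for replicates 1 to 4, and mean ± SD at the side of each group. All 4 Ts65Dn arrays lie above all wild-type arrays in 10 panels, and wild-type arrays 2 and 3 are the low ones in Tfb1m, Scaf8 and Cep43.

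Among the genes of transcription, chromatin and DNA repair, Scaf8 rose. It encodes a protein that binds the tail of RNA polymerase II and acts at the end of transcripts. Scaf8 read 8.11, 7.98, 7.95 and 7.97 on Ts65Dn arrays 1 to 4 and 7.16, 6.52, 6.004 and 7.10 on wild-type arrays 1 to 4. The Ts65Dn arrays lay within a narrow band, and the closest wild-type array was 0.78 below them. The log2 fold change was 1.30 (SE 0.23, n = 4 per group; limma adjusted p = 0.0456), or 2.47-fold. Level-matched it was 0.96 (limma adjusted p = 0.0449), and with wild-type arrays 2 and 3 left out it was 0.87, with the groups still apart but no longer past the threshold.

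Tfb1m, which methylates the RNA of the small mitochondrial ribosome subunit, had the second highest fold change and was not called. It read 7.11, 6.98, 7.06 and 7.04 in Ts65Dn and 6.54, 4.79, 4.29 and 6.41 in wild type. The Ts65Dn arrays were nearly equal (SD 0.05), and the wild-type arrays fell into a high pair, 1 and 4, and a low pair, 2 and 3 (SD 1.14). The log2 fold change of 1.54 (SE 0.44; limma adjusted p = 0.0578) was 0.57 without wild-type arrays 2 and 3. Its paralog Tfb2m, a mitochondrial transcription factor encoded outside the segments, had a like spread, at 7.96 ± 0.13 in Ts65Dn and 7.22 ± 0.71 in wild type (SD, n = 4), and the log2 fold change was 0.74 (limma adjusted p = 0.104).

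Gtf2h5 and Arid1b had smaller differences. Gtf2h5, the smallest subunit of the repair and transcription factor TFIIH, read 10.01, 10.03, 9.97 and 9.92 in Ts65Dn and 9.47, 9.93, 9.77 and 9.65 in wild type. Wild-type array 2 overlapped the Ts65Dn range by 0.01. The log2 fold change of 0.28 (SE 0.12; limma adjusted p = 0.139) had a 95% interval that ended at 0.56, short of 0.58. It was 0.17 level-matched and 0.43 without wild-type arrays 2 and 3. Arid1b, a subunit of the BAF chromatin remodelling complex, read 6.25, 6.03, 6.53 and 6.34 in Ts65Dn against 6.02, 6.08, 6.16 and 6.09 in wild type. The groups overlapped through Ts65Dn array 2, and the log2 fold change was 0.20 (SE 0.13; limma adjusted p = 0.277), or 0.01 level-matched.

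In the group of cytoskeleton and cilia genes, Tiam2 and Cep43 rose. Tiam2, an exchange factor that activates the small GTPase Rac, read 6.39, 5.99, 5.28 and 5.06 in Ts65Dn and 4.05, 3.52, 3.99 and 4.44 in wild type. The groups were apart by 0.62, but Ts65Dn arrays 1 and 2 were well above arrays 3 and 4. Its log2 fold change of 1.68 (SE 0.29; limma adjusted p = 0.0456), or 3.21-fold, was the highest among the segment genes. It was 1.95 level-matched (limma adjusted p = 0.0449) and 1.44 without wild-type arrays 2 and 3.

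Cep43, a centrosome protein that anchors microtubules and acts in building cilia, read 7.68, 7.39, 7.41 and 7.77 in Ts65Dn. The wild-type values were 6.99, 6.04, 6.34 and 7.11, again with arrays 2 and 3 lowest. Its log2 fold change was 0.94 (SE 0.23; limma adjusted p = 0.0475), 0.53 level-matched (limma adjusted p = 0.146) and 0.51 without wild-type arrays 2 and 3. The third measured gene of this group was Ezr, which encodes ezrin, a link between actin and the cell membrane. Ezr read 5.47, 5.54, 5.53 and 5.63 in Ts65Dn and 5.57, 5.58, 5.72 and 5.47 in wild type. The 2 ranges covered each other, with a log2 fold change of -0.04 and a 95% interval from -0.29 to 0.20 that does not reach 0.58. Its sign turned with arrays centred on their median, as given in the closing section.

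Membrane traffic and lipid signalling genes included the called genes Tulp4 and Synj2. Tulp4, a tubby-like protein with a SOCS box, read 9.57, 9.88, 9.76 and 9.60 in Ts65Dn and 8.86, 8.69, 7.59 and 8.97 in wild type. Wild-type array 3 was far below the other arrays, and the gap between the groups was 0.59. The log2 fold change was 1.18 (SE 0.26; limma adjusted p = 0.0456), 0.92 level-matched (limma adjusted p = 0.0612) and 0.79 without wild-type arrays 2 and 3. A dimmer probe set of Tulp4 gave 0.33, and the mean of both gave 0.75.

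Synj2, a phosphatase that removes phosphate from membrane inositol lipids, read 7.06, 6.53, 6.79 and 7.14 in Ts65Dn and 6.25, 6.23, 6.14 and 6.19 in wild type. Its wild-type arrays were nearly equal (SD 0.05), unlike those of Scaf8, Tfb1m and Tulp4. Its fold change of 0.68 on the log2 scale (SE 0.15; limma adjusted p = 0.0456) was 0.66 without wild-type arrays 2 and 3 and 0.32 level-matched (limma adjusted p = 0.269). Snx9, a sorting nexin of clathrin-mediated endocytosis, read 7.62, 7.29, 7.65 and 7.51 against 7.24, 7.16, 6.35 and 7.40. Its groups overlapped, and its log2 fold change of 0.48 (SE 0.21; limma adjusted p = 0.138) was 0.11 level-matched and 0.19 without wild-type arrays 2 and 3.

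Sft2d1, a protein of Golgi vesicle traffic, read 6.81, 6.80, 6.90 and 6.68 in Ts65Dn and 6.80, 7.14, 6.13 and 6.93 in wild type. All Ts65Dn arrays lay within the wild-type range, with a log2 fold change of 0.04 (95% interval -0.39 to 0.48), -0.36 level-matched. Of its 3 probe sets, a pair held identical values and the third gave 0.28. Serac1, Zdhhc14 and Sytl3, the 3 dim genes of this group, were not called. Of these, Serac1, which acts in lipid exchange between mitochondria and endoplasmic reticulum, read 4.79, 4.90, 5.00 and 4.88 against 4.48, 4.33, 4.71 and 4.45. No Ts65Dn array fell within the wild-type range, and the log2 fold change was 0.40 (SE 0.12; limma adjusted p = 0.0631), 0.58 level-matched. Serac1 and Gtf2h5, whose promoter windows overlap as printed above, both had positive fold changes that were not called. The palmitoyltransferase Zdhhc14 was at 0.28 (limma adjusted p = 0.148), 0.55 level-matched. Sytl3, a synaptotagmin-like protein of vesicle docking, was at -0.51 (limma adjusted p = 0.0779), -0.25 level-matched.

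Of the signalling enzymes and receptors 0 of 5 were called by limma, beside 2.32% of all genes called higher and 2.94% lower. At its unadjusted p under 0.05, 1 was higher and 3 lower, beside 12.3% and 22.6% of all genes. Of the 5 genes 3 were dimmer than the median gene, and of all dim genes 29.8% were lower at that p. Pde10a, a phosphodiesterase that breaks down cyclic AMP and cyclic GMP, is the last gene of the segment. It read 6.36, 6.53, 5.11 and 4.78 in Ts65Dn and 4.51, 5.03, 4.60 and 4.66 in wild type. Ts65Dn arrays 1 and 2 stood more than 1 unit above the other 6 arrays, while array 4 lay inside the wild-type range. The log2 fold change of 0.997 (SE 0.36; limma adjusted p = 0.0860) was 1.21 level-matched and 1.11 without wild-type arrays 2 and 3. In Tiam2 the same Ts65Dn arrays, 1 and 2, were also the higher ones.

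The other receptors and enzymes had negative fold changes. Ccr6, a chemokine receptor of lymphocytes, had means of 3.405 ± 0.14 in Ts65Dn and 3.76 ± 0.19 in wild type (SD, n = 4), and the log2 fold change was -0.35 (limma adjusted p = 0.0978), or -0.08 level-matched. Tagap, a GTPase-activating protein of activated T cells, had a log2 fold change of -0.09, which became 0.17 level-matched. Of 9 measured lymphocyte markers 8 had a negative fold change, and Ptprc was at 0.35. Negative values were also found for 8122 of the 9889 dim genes outside the segments. Of the 9 markers 1, Cd79b, was called lower, beside 2.94% of all genes. Level-matched, the marker median was -0.18, and Cd79b was at -0.24 (limma adjusted p = 0.275). The mean log2 value of the markers per array was 3.55 to 3.81 in Ts65Dn and 3.87 to 4.17 in wild type. The part of lymphocytes in the values of Ccr6 and Tagap was not tested. Nox3, an NADPH oxidase of the inner ear, was at 2.33 ± 0.10 and 2.73 ± 0.23, brighter than 7.6% of genes, with the log2 fold change at -0.40 (limma adjusted p = 0.0775).

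Gpr31b, a G protein-coupled receptor, read 5.31, 5.45, 5.40 and 5.34 in Ts65Dn and 5.80, 6.24, 6.23 and 5.60 in wild type. All Ts65Dn arrays lay below all wild-type arrays, with a log2 fold change of -0.59 (SE 0.16; limma adjusted p = 0.0523), and -0.56 for its second probe set. It was -0.63 level-matched and -0.33 without wild-type arrays 2 and 3. In the gene order of GRCm38.p6, Gpr31b lies distal to Pde10a, as do Unc93a, Tcp10b and Tcp10c, which were not measured on their own. By that order Gpr31b is outside the segment as defined. Without it, the 23 remaining genes had a median log2 fold change of 0.40, and the count of called genes stayed at 6.

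Mpc1 and Tmem242 are mitochondrial. Mpc1, a subunit of the carrier that brings pyruvate into mitochondria, read 10.53, 10.37, 10.32 and 10.29 in Ts65Dn and 10.18, 9.61, 9.51 and 10.25 in wild type. The groups were apart by 0.04, and wild-type arrays 2 and 3 were the low ones. Its log2 fold change of 0.49 (SE 0.18; limma adjusted p = 0.0897) was 0.40 level-matched and 0.16 without wild-type arrays 2 and 3. Tmem242, an assembly factor of ATP synthase, read 9.32, 9.40, 9.30 and 9.37 against 9.02, 8.78, 8.54 and 9.28. It was likewise apart by 0.02, and the log2 fold change was 0.45 (limma adjusted p = 0.0826), or 0.20 without wild-type arrays 2 and 3.

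Fndc1, an extracellular protein with fibronectin type III domains, rose. It read 6.01, 5.34, 5.26 and 5.54 in Ts65Dn and 4.82, 4.40, 4.58 and 4.81 in wild type, with a gap of 0.44 between the groups. The log2 fold change of 0.89 (SE 0.18; limma adjusted p = 0.0456) was 1.11 level-matched (limma adjusted p = 0.0505) and 0.73 without wild-type arrays 2 and 3. Of 6 fibroblast markers 1, Pdgfra, was called higher, beside 2.32% of all genes, and 0 lower. Fold changes were positive for 3 (Pdgfra, Dcn and Lum) and negative for 3 (Col1a1, Col1a2 and Col3a1). The marker median was 0.15, or 0.09 level-matched. The mean log2 value of the markers per array was 6.68 to 6.91 in Ts65Dn and 6.52 to 6.65 in wild type. Their part in the value of Fndc1 was not tested.

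Cldn20, a claudin of tight junctions, and Prr18, a proline-rich protein, had negative fold changes that were not called. Cldn20 read 4.59, 4.62, 4.46 and 4.58 in Ts65Dn and 4.74, 5.50, 5.01 and 4.59 in wild type. The groups overlapped only through wild-type array 4, and the log2 fold change of -0.40 (limma adjusted p = 0.146) was -0.10 without wild-type arrays 2 and 3. Prr18 read 4.61, 5.01, 5.00 and 5.12 against 5.28, 5.59, 5.90 and 5.24, with all Ts65Dn arrays below all wild-type arrays. Its log2 fold change was -0.57 (SE 0.17; limma adjusted p = 0.0646), -0.45 level-matched and -0.33 without wild-type arrays 2 and 3.

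**Figure D2:**
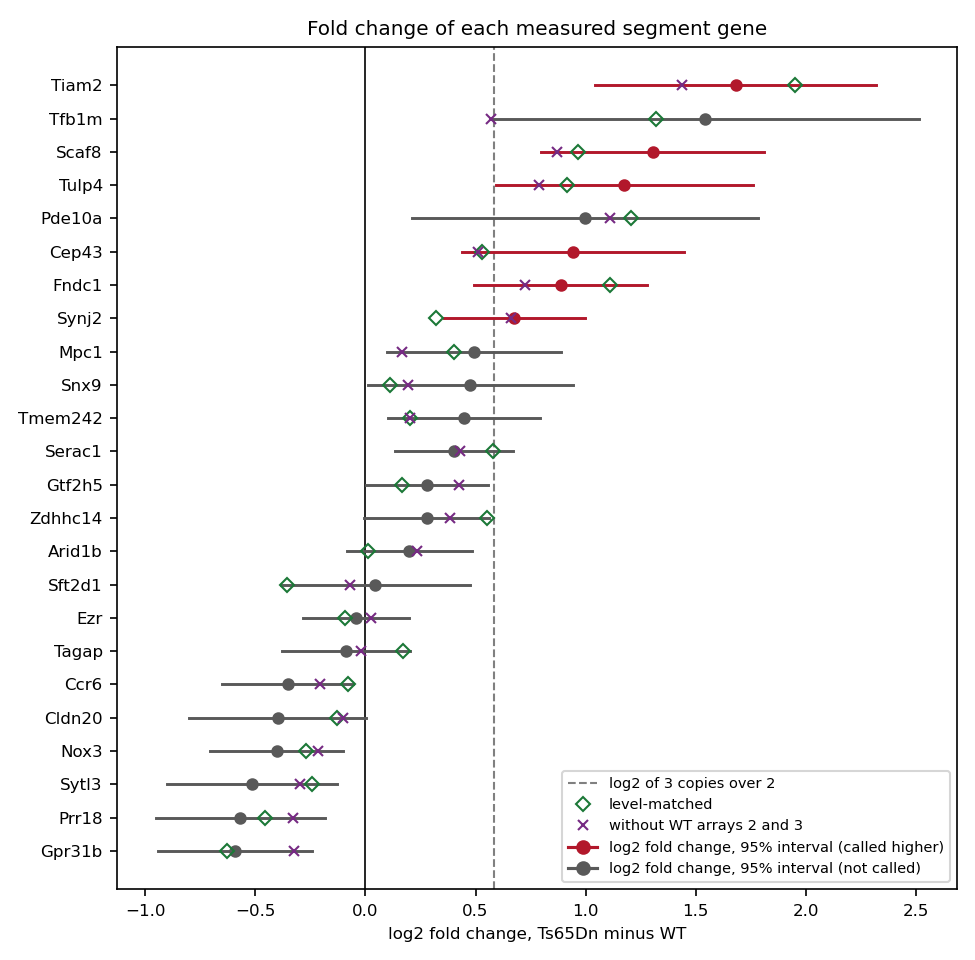
Log2 fold change of each measured segment gene with its 95% interval from limma (circles and lines, red where called higher), its level-matched value (open diamonds) and its value without wild-type arrays 2 and 3 (crosses), with lines at 0 and at 0.58. The intervals of Tiam2, Scaf8 and Tulp4 (its brighter probe set) lie above 0.58, and 5 intervals lie below 0.

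Set against the copy number ratio, the 95% intervals, which are not adjusted for the number of genes, fell into 5 classes. Those of Tiam2, Scaf8 and Tulp4 lay wholly above 0.58. For Tulp4 this is the brighter probe set, and the dimmer one gave 0.33 (SE 0.17; limma adjusted p = 0.205). In 9 genes, among them Synj2, Cep43, Fndc1 and Mpc1, the interval held 0.58 and not 0. Gtf2h5 lay between 0 and 0.58, and 6 genes, among them Ezr, Arid1b and Sft2d1, held 0 and not 0.58. The intervals of Ccr6, Nox3, Sytl3, Prr18 and Gpr31b lay below 0, and their fold changes without wild-type arrays 2 and 3 were nearer to 0, from -0.33 to -0.21. The first 2 classes together held 12 of the 24 genes, beside 11.9% of all genes. Because these intervals rest on values that were not level-matched, they include the difference in shape between the arrays.

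**Figure D3:**
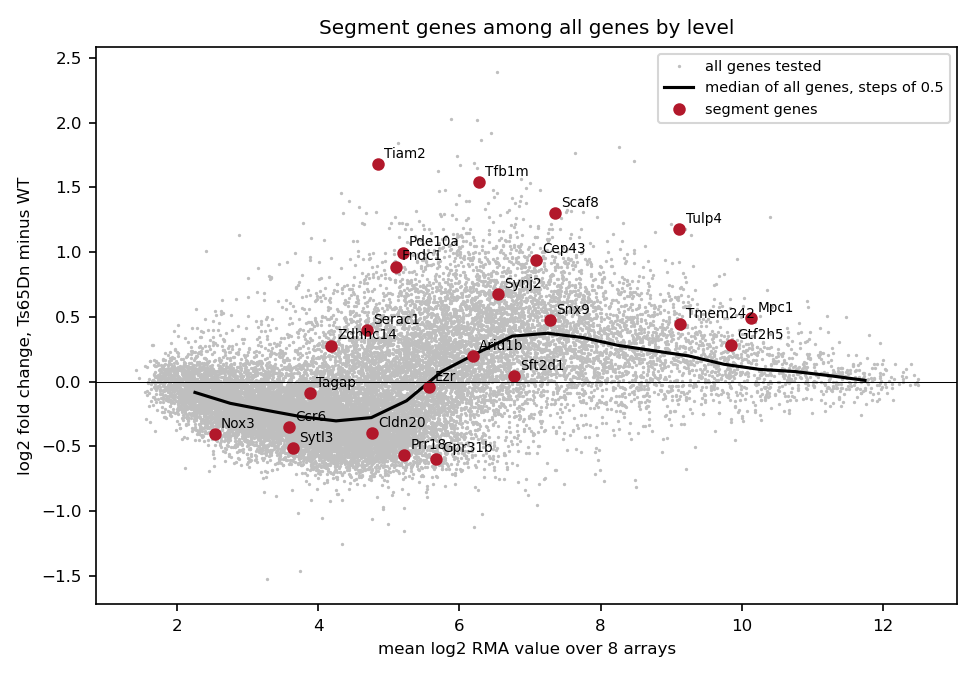
Log2 fold change against the mean log2 RMA value over all 8 arrays for all genes tested (grey), their running median in steps of 0.5 (line) and the 24 segment genes (red, named). The line lies below 0 for dim genes and above 0 for genes between about 6 and 9, and Tiam2, Scaf8, Tulp4 and Tfb1m lie far above it.

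Direction went with brightness in this segment as it did in all genes. Of the 18 segment genes brighter than the median gene, 14 were positive and 6 called higher. Of the 9888 genes outside the segments at that level, 5980 were positive and 398 called higher. The median of the 18 was 0.48, or 0.26 level-matched. In 9 of these 18 all Ts65Dn arrays lay above all wild-type arrays, beside 12.4% of all genes above the median level. Of the 6 dimmer genes 2 were positive and 0 were called by limma, and their median was -0.22, or 0.05 level-matched. At limma's unadjusted p under 0.05, 1 of these 6 was higher and 3 were lower, beside 2.08% and 29.8% of all dim genes. In none of these 6 did all Ts65Dn arrays lie below all wild-type arrays, beside 20.9% of all dim genes. Level-matched, 2 segment genes were called higher by limma, Tiam2 and Scaf8, beside 0.366% of all genes.

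The spread between arrays was wider in wild type for most segment genes. With 1 array per sample, spread between mice and between arrays cannot be told apart. The SD over 4 arrays was larger in wild type for 19 of the 24 genes, beside 67.3% of all genes. Over the 24 genes the median SD was 0.13 for Ts65Dn and 0.29 for wild type, beside 0.17 and 0.23 for all genes. Of the 18 brighter genes, 11 had their lowest wild-type value on array 2 or 3, close to the 60.3% of all bright genes. All 6 dimmer genes had their highest wild-type value on array 2 or 3, beside 80.4% of all dim genes. The highest Ts65Dn value was on array 1 in 6 genes, on array 2 in 8, on array 3 in 4 and on array 4 in 6, so no single Ts65Dn array was the highest throughout.

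**Figure D4:**
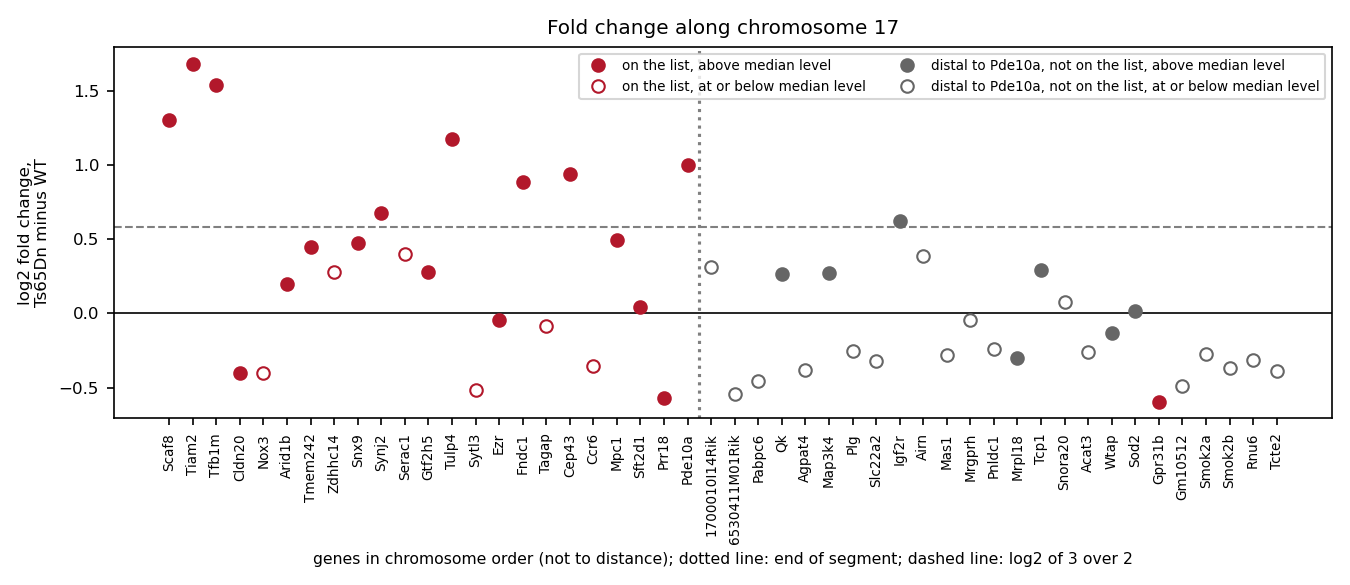
Log2 fold change of the 24 listed genes (red) and the 24 nearest measured genes beyond Pde10a (grey) in their order along chromosome 17, filled where the gene was above the median level, with the end of the segment (dotted line) and 0.58 (dashed line). Fold changes above 0.7 lie at both ends and in the middle of the segment. The highest beyond it is that of Igf2r, at 0.62, and 7 of the 24 grey genes are above the median level.

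Along the chromosome, the high values were not gathered at one end. Scaf8, Tiam2 and Tfb1m are neighbours at the centromeric end, Tulp4 lies in the middle, and Fndc1, Cep43 and Pde10a lie towards the distal end. Each of these stretches also held genes with a negative fold change, such as Cldn20 and Nox3 beside Tfb1m, and Prr18 beside Pde10a. The 24 nearest measured genes beyond Pde10a, present in 2 copies, had a median log2 fold change of -0.26, and 8 were positive. Their level-matched median was -0.08. Of these, Igf2r, a receptor that carries lysosomal enzymes, was called higher at 0.62 (0.22 level-matched), and the unnamed transcript 6530411M01Rik was called lower at -0.54 (-0.30 level-matched). In 7 of the 24 the level was above the median gene, and the median of these 7 was 0.27, or 0.15 level-matched. The values for the 18 listed genes at that level, with Gpr31b among them although it lies beyond Pde10a, were 0.48 and 0.26. The chromosome 16 segment genes at that level, 61 in number, had 0.53 and 0.35.

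Several segment genes have a paralog that is also in 3 copies in Ts65Dn, on the chromosome 16 segment. Scaf4, the paralog of Scaf8, averaged 5.69 ± 0.16 in Ts65Dn and 5.40 ± 0.23 in wild type (SD, n = 4), which differ by 0.28 (limma adjusted p = 0.184). Tiam1, the paralog of Tiam2, averaged 4.81 ± 0.16 against 4.99 ± 0.10, which differ by -0.18 (limma adjusted p = 0.303) that was 0.09 level-matched. Synj1, the paralog of Synj2, averaged 6.84 ± 0.14 against 6.33 ± 0.20, which differ by 0.51 (limma adjusted p = 0.0522), or 0.19 level-matched. In each of these pairs the chromosome 17 gene was called higher and the chromosome 16 gene was not, and the difference between the members of a pair was not tested.

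Partners of the segment genes are mostly encoded elsewhere, and their counts can be set beside the 2.32% of all genes called higher and the 2.94% called lower. Of 28 measured paralogs and family members 2 were called higher and 0 lower, Msn (0.71, limma adjusted p = 0.0456), which encodes moesin, a relative of ezrin, and Cybb (0.70, limma adjusted p = 0.0497), a phagocyte NADPH oxidase related to Nox3. Markers of macrophages, which carry Cybb, had a mean log2 value of 5.19 to 5.73 in Ts65Dn and 4.84 to 5.12 in wild type, with 1 of 8, Cd68, called higher at 2.39. The other markers ran from -0.09 (C1qa) to 0.42 (Lyz2), and their part in Cybb was not tested. Radixin (Rdx), the other protein of the ezrin family, stood at 0.22 (limma adjusted p = 0.241). Of 11 measured Rac regulators and effectors, which include Tiam1, 1 was called higher and 0 lower, the kinase Pak2 (0.84, limma adjusted p = 0.0456). Of 19 BAF complex genes 1 was called higher and 0 lower, Arid2 (0.70, limma adjusted p = 0.0493), while Arid1a, the paralog of Arid1b, was at -0.02. Level-matched, Cybb was at 1.01 (limma adjusted p = 0.0449), and Msn (0.46, limma adjusted p = 0.0872), Pak2 (0.60, limma adjusted p = 0.0768) and Arid2 (0.90, limma adjusted p = 0.0538) did not pass. An unadjusted p under 0.05 was found for 10 of the 28 paralogs, 3 of the 11 Rac genes and 7 of the 19 BAF genes, beside 34.8% of all genes.

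Other partner lists held no called gene. These were 8 measured genes of TFIIH, the complex of Gtf2h5 (median log2 fold change 0.22, 5 positive), and 7 of mitochondrial transcription, including Tfb2m (0.23, 6 positive). They were also 8 of pyruvate entry, the pathway that Mpc1 feeds (0.08, 5 positive), and 10 of dynein (0.33, 7 positive), including Dynlt3, the relative of the Dynlt1 copies (0.36, limma adjusted p = 0.143). Limma's unadjusted p was under 0.05 for 2, 3, 0 and 3 genes of these lists in turn, beside the same 34.8% of all genes. Level-matched, the medians of these lists were 0.03, 0.20, -0.01 and 0.08 in turn, beside 0.0011 over all genes.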

How the data were processed

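Total RNA was hybridised to Affymetrix Mouse Gene 1.0 ST arrays, 1 per sample. The deposited log2 values were made by the authors with Affymetrix Expression Console 1.1 and RMA, per the submitters' processing notes. The log2 scale was read from the values, and the genome build is not given in the sources used here. Of 35556 probe sets, 21789 name 1 gene, 1621 name several and 12146 name none. Only those with 1 gene were used, under symbols updated through Entrez identifiers (RefSeq, GRCm38.p6) for 21698. The brightest probe set stood for each of the 999 genes with several. Ts65Dn was compared with wild type over all 19938 genes with limma 3.58.1 in R 4.3.3 (lmFit and eBayes, two-sided, Benjamini-Hochberg, threshold 0.05), after a test on simulated data. Tables and plots were made in Python 3.11.15 with pandas 2.3.3 and matplotlib 3.10.9. The segment genes and the partner and marker lists were chosen with earlier results of these data known. All measured segment genes are named. Those called or above the median level have every array given, as has Serac1, added after its values were seen. Of the lists, called genes and a few paralogs are named (Mpc2 was not measured), and Igf2r, 6530411M01Rik and the marker genes were named after their values were seen. Alternatives covered the scaling between arrays, the filter on dim genes, the probe set rule, the variance model, array weights, the adjustment, the threshold, a replicate block and arrays left out. Probe sets that name several genes support no result. Sequence windows came from RefSeq.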

Additional observations from a re-analysis of the deposited data

How the results depend on the processing

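Calls were close to the threshold, and the count of 6 segment genes called higher by limma was 0 after a further quantile normalization, with adjustment over all probe sets, and without wild-type arrays 2 and 3, level-matched or not. It was 2 level-matched, 3 with array weights and 11 at a threshold of 0.1, where 5 were called lower. With 1 array left out it ran from 0 to 9, and the count called lower ran from 0 to 3. It was 0 without any single Ts65Dn array or without wild-type array 2 or 3. The counts of all genes called higher and lower, 462 and 587, were 951 and 57 with arrays centred on their median, 73 and 16 level-matched and 107 and 35 with cyclic loess. They were 294 and 142 among genes above the median level, 159 and 77 with array weights, and 1754 and 3207 at a threshold of 0.1. They were 0 and 0 after quantile normalization or adjustment over all probe sets, 1 and 0 without wild-type arrays 2 and 3, level-matched or not, and 0 to 1215 and 0 to 1650 with 1 array left out. In these settings 9 to 15 segment genes were higher and 1 to 6 lower at limma's unadjusted p under 0.05. The cause was not tested. Centring moved the median of all genes from -0.10 to 0.10.

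Correlations of deviations from the group mean were 0.01 to 0.09 for same-numbered arrays and -0.12 to 0.09 for other pairs of arrays. So few weak correlations cannot settle whether the replicate numbers pair the samples, and the main fit did not pair them. With a replicate block, 0 segment genes and 0 and 0 of all genes were called higher and lower by limma, with 11 and 6 segment genes higher and lower at an unadjusted p under 0.05.

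The segment median of 0.34 stayed positive, at 0.19 after quantile normalization, 0.54 centred, 0.19 level-matched, 0.22 with cyclic loess, 0.48 among genes above the median level, 0.22 without wild-type arrays 2 and 3 and 0.16 level-matched without them. The median of the neighbours, -0.26, was in the same settings -0.075, -0.054, -0.078, -0.063, 0.27, -0.15 and -0.0077, and 0.0072 over the 10 nearest. With 1 array left out it ran from -0.29 to -0.18. Sign turned for 5 of the 24 genes. Arid1b was at -0.028 after quantile normalization, and Cldn20 at 0.057 level-matched without wild-type arrays 2 and 3. Ezr was at 0.16 centred and 0.024 without those arrays, and ran from -0.083 to 0.0035 with 1 array left out. Sft2d1 was at -0.26 after quantile normalization, -0.36 level-matched, -0.20 with cyclic loess, -0.041 with array weights, -0.069 without those arrays and -0.25 level-matched without them, and ran from -0.16 to 0.18 with 1 array left out. Tagap was at 0.15 after quantile normalization, 0.12 centred, 0.17 level-matched, 0.20 with cyclic loess and 0.13 level-matched without those arrays. The cause was not tested. The settings that left out wild-type arrays 2 and 3 and level-matched the rest, or dropped Gpr31b, were added after seeing the data.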

Other observations

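Of the listed genes, 14 occur only in probe sets that name several genes, among them the Dynlt1 and Rsph3 copies, Tmem181a and the Rnaset2 pair, so no value can be given to any one of them. The 12 probe sets that hold such a gene had log2 fold changes from -0.52 to 0.65, of which 8 were positive. In 2 of them all Ts65Dn arrays lay above all wild-type arrays and in 2 all lay below, beside 6.81% and 15.9% of all genes. At limma's unadjusted p under 0.05, 2 were higher and 2 lower, beside 12.3% and 22.6% of all genes. The smallest limma adjusted p of these 12, over all probe sets, was 0.0910.

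Another 8 genes measured within the segment, which the list does not hold, all had negative log2 fold changes, with a median of -0.29. Only Mir692-1 and T2 among them were above the median level, and 8122 of the 9889 dim genes outside the segments were negative too. Limma called 0 of the 8, beside 2.32% of all genes called higher and 2.94% lower. At its unadjusted p under 0.05, 0 were higher and 1 lower, beside 12.3% and 22.6% of all genes. Level-matched, the median of the 8 was -0.05 and 2 were positive.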
